A study of Mus musculus with 12 samples.

Results

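The chemokine genes and chemokine receptor genes of mouse neuroendocrine thyroid carcinomas are described here. Members were chosen by name alone: every row of the count tables whose symbol was Ccl, Cxcl, Ccr or Cxcr followed by a number, with or without a final a or b, together with Cx3cl1, Cx3cr1, Xcl1 and Xcr1. This gave 57 of 23284 genes, 38 of them ligands and 19 receptors. Messenger RNA had been sequenced from 12 primary thyroid tumours to look for genes that depend on Crebbp, which encodes a histone acetyltransferase and transcriptional coactivator. By genotype label 7 tumours were Rb1/Trp53 (RP below) and the other 5 were Rb1/Trp53/Crebbp (RPC), so that Rb1 and Trp53 are named in the genotype of every tumour and Crebbp in that of RPC alone. No treatment is labelled, and the sources used here do not state the alleles, the Cre driver, the age of the mice or whether tumours came from separate mice. P-values therefore measure the spread between these tumours.

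Chemokines are small secreted proteins that guide migrating cells, mostly leukocytes, along gradients. They are classed by the spacing of their first cysteines as CC, CXC, C or CX3C chemokines, and they act on membrane receptors that mostly couple to inhibitory G proteins. Inflammatory chemokines are induced by cytokines such as interferons and tumour necrosis factor, and homeostatic ones are made constantly by stroma and epithelium. In a whole tumour the ligands can come from tumour cells, stroma or leukocytes, while most of the receptors mark leukocytes. In such bulk samples fewer cells of a type and less RNA per cell cannot be told apart.

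Depth was 9.11 M to 57.3 M gene counts per tumour, the deepest being RP replicate 5, and 3 counts corresponded to 0.0523 to 0.329 CPM, the counts scaled to library size. The 15 neuroendocrine and C cell markers, Calca among them, were all tested and summed to 102211 to 239576 CPM in RP and 27136 to 142794 CPM in RPC tumours. Crebbp stood at 54.6 CPM in RP and 53.9 CPM in RPC tumours on average (log2 fold change -0.02 ± 0.20 SE; adjusted p = 0.957), and a count over a whole gene cannot check a deletion of part of it, so directions below are between groups as labelled. A pair of RP tumours stood apart for the genes described here. RP replicate 3 had the highest monocyte and macrophage marker sum, at 1016 CPM against 200.3 to 544 CPM in the other RP tumours. RP replicate 5 had the highest T and NK cell marker sum, at 35.3 CPM against 4.36 to 9.91 CPM. It also had the highest dendritic cell marker sum, at 22.1 CPM against at most 12.6 CPM in any other tumour. RP replicate 3 also had the highest pan-leukocyte and fibroblast and pericyte sums, at 192 and 2309 CPM. The pan-leukocyte sum of RP replicate 5 was 155 CPM, so neither tumour stood apart for 1 cell type alone.

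RefSeq promoter sequences of build GRCm38.p6 were matched for 42 of the 57 members, and the 250 bases before each listed start of transcription were read, in 49 windows because 4 of the genes have several starts. Promoters are shown for 4 ligand genes: Cxcl10 and Cxcl12, which were lower in RPC tumours, Ccl27a, which was higher, and Cxcl9, which shares the receptor of Cxcl10 and was not called. Capitals mark matches on either strand to the interferon-stimulated response element, the gamma-activated site (TTCNNNGAA), the kappa B consensus bound by NF-kB, the cAMP response element (TGACGTCA), its half-site (TGACG) and the TATA box (TATAAA).
Cxcl10, chr5:92348890-92349139, minus strand: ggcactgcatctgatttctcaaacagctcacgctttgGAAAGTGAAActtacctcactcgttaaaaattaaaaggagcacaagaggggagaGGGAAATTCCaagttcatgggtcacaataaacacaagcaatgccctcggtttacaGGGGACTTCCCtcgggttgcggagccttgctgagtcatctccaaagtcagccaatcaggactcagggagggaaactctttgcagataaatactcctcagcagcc
Cxcl9, chr5:92328080-92328329, minus strand: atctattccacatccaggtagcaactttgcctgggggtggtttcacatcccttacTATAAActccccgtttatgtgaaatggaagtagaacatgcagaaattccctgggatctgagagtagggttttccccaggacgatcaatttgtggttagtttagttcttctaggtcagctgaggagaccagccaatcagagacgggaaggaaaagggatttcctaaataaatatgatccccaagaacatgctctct
Cxcl12, chr6:117168285-117168534, plus strand: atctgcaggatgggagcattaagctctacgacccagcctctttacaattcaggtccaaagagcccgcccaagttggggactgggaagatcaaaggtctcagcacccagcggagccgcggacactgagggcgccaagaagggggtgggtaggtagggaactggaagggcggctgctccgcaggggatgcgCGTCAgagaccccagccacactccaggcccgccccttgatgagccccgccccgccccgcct
Ccl27a, chr4:41774177-41774426, minus strand: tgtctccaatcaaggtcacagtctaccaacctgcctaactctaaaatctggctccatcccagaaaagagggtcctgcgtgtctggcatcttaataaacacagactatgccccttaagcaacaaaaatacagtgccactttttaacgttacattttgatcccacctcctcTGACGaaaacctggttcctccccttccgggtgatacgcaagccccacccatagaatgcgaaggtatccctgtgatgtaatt
The Cxcl10 window held 1 interferon-stimulated response element, 203 bases before the start, and 3 kappa B matches, 2 of which overlap and end 94 and 93 bases before it. Of all 32851 promoter windows, 2.98% held the first motif and 7.25% the second. The Cxcl9 window held no match to either and 1 match to the TATA box letters, 189 bases before the start, found in 12.4% of all windows. Only these exact patterns were sought, so other interferon-responsive or NF-kB-bound sequence in a window would have been missed. The Cxcl12 window and the Ccl27a window shown each had a cAMP response half-site, 56 and 76 bases before the start, a motif found in 17.8% of all windows. Of the other Ccl27a windows, the second, which overlaps the one shown, held the half-site 151 bases before its start, and the third held none of these motifs. No member promoter held the full cAMP response element, which stood in 1.55% of all windows, and kappa B matches stood in 10 of the 49 member windows, those of Ccl1, Ccl20, Ccl9, Ccr1, Ccr3, Ccr6 (at its second start), Cxcl1, Cxcl10, Cxcl2 and Cxcl3.

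Of the 57 members, 32 had enough reads to be tested between the genotypes and 25 did not. In RPC tumours 6 ligand genes were lower, Ccl11, Cxcl10, Cxcl11, Cxcl12, Cxcl16 and Cxcl17, and 1 was higher, Ccl27a. These 7 are 21.9% of the tested members, against 18.3% of all 14989 genes tested. By direction, 18.8% of the tested members were lower against 8.61% of all genes, and 3.12% were higher against 9.64%. None of the 8 tested receptor genes was called, and Ccr2 was the only one with an unadjusted p under 0.05; DESeq2 called Ccr2 lower (adjusted p = 0.0167). The log2 fold change was below 0 for 28 of the 32, with a median of -0.84, while it was below 0 for 51.5% of all genes tested, with a median of -0.02. No tested member had groups that did not overlap, against 6.26% of all genes, 3.62% higher and 2.64% lower.

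**Figure D1:**
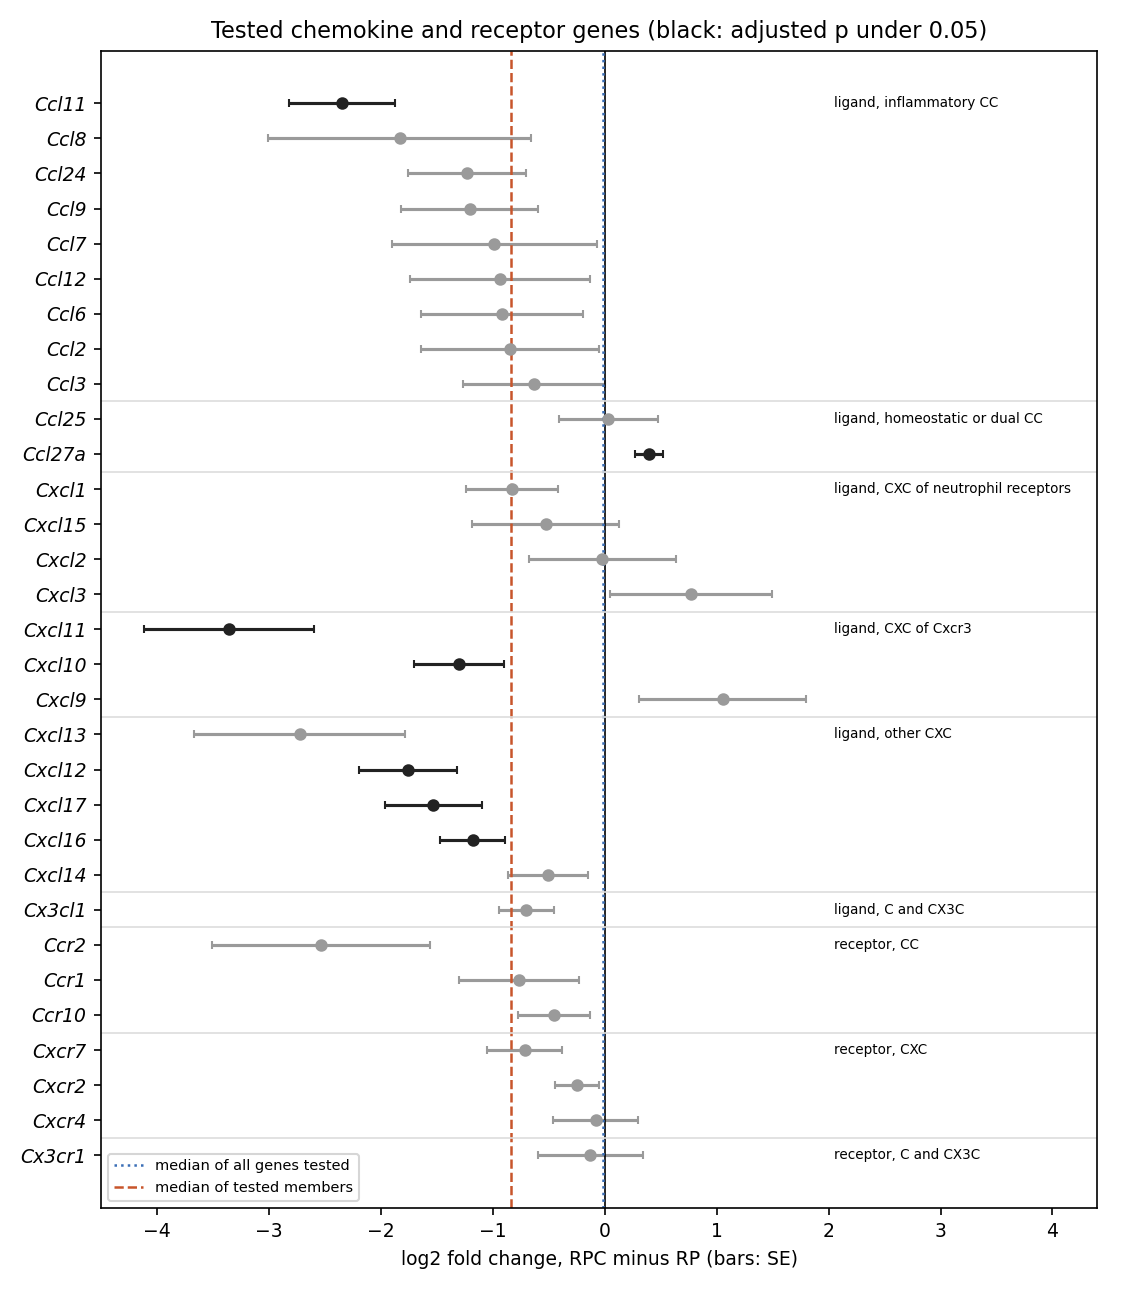
Log2 fold change of 31 of the tested chemokine and receptor genes (x axis, RPC minus RP; bars are the standard error), grouped by role; black points had an adjusted p under 0.05, and lines mark 0 and the medians. The 6 genes called lower lie between -3.35 and -1.18, Ccl27a is called higher at 0.39, and 27 of the 31 points lie left of 0.

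These counts depended on the tumours included. Leaving out 1 tumour at a time gave 2 to 8 lower members, with 2 without RPC replicate 1 and 3 without RPC replicate 2, and 0 or 1 higher members. RP replicates 2, 4, 6 and 7 had adipocyte marker sums of 682 to 2149 CPM, against 100.5 to 221.9 CPM in the other RP and 77.4 to 159.7 CPM in the RPC tumours. Without those 4, no member was called and 40 of all genes were. At an unadjusted p under 0.05, 16 members were lower, against 10 with all 12 tumours. Over all genes and both directions 2694 had such a p without those tumours and 5336 with all 12. With all 12 tumours 2631 of the 14989 genes (17.6%) were lower at such a p. The lower direction was not counted over all genes without those 4, so the 16 members have no like background. The log2 fold changes of Cxcl11 (-3.35) and Cxcl10 (-1.35) then stayed close to their values over all tumours, and those of Ccl11 (-1.75), Cxcl12 (-1.48), Cxcl16 (-0.86) and Cxcl17 (-0.88) came nearer to 0.

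Ccl11 encodes eotaxin, which attracts eosinophils through Ccr3. It ranged in RP tumours from 2.25 CPM in replicate 1 over a median of 10.3 CPM to 11.5 CPM in replicate 2. The values in RPC replicates 1 to 5 were 1.01, 1.28, 1.32, 1.15 and 3.84 CPM. The first 4 RPC tumours were below every RP tumour, and the groups overlapped through RPC replicate 5 and RP replicate 1. Ccl11 fell 5.09-fold (log2 fold change -2.35 ± 0.47 SE; adjusted p = 0.00966, edgeR quasi-likelihood test with Benjamini-Hochberg adjustment, the test behind each adjusted p here unless another is named). It was called without any 1 tumour. The other eotaxin gene tested, Ccl24, was at 1.54 ± 1.41 CPM (SD, n = 7) in RP and 0.633 ± 0.195 CPM (SD, n = 5) in RPC tumours and did not pass (adjusted p = 0.117), and Ccl26 was listed at 0 in every tumour. The receptor gene Ccr3 had at most 7 counts in any tumour.

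Cxcl11, Cxcl10 and Cxcl9 encode the 3 interferon-induced ligands of Cxcr3, a receptor of activated T cells and NK cells. Cxcl11 ran in RP tumours from 0.352 CPM in replicate 1 over a median of 4.56 CPM to 16.3 CPM in replicate 5. RPC replicates 1 to 5 had 0.441, 0.458, 0.896, 0.888 and 0.362 CPM. RP replicate 1 was below every RPC tumour, and the other 6 RP tumours were above all of them. RP replicate 1 had 5 counts and the RPC tumours 5 to 19, so the order among these low values is uncertain. Cxcl11 fell 10.2-fold (log2 fold change -3.35 ± 0.76 SE; adjusted p = 0.0148) and was called without any 1 tumour. Of the 50-base windows of its transcripts, 40.4% also occurred in transcripts of other genes, from which reads would not be counted if they aligned to several places. Cxcl10 ran from 2.39 CPM in RP replicate 1 over a median of 10.3 CPM to 17.4 CPM in RP replicate 5. RPC replicates 1 to 5 had 6.11, 5.04, 3.92, 3.996 and 2.90 CPM. RP replicate 1 was again below every RPC tumour, and the other 6 RP tumours were above all of them. Cxcl10 fell 2.47-fold (log2 fold change -1.30 ± 0.40 SE; adjusted p = 0.0408), and the call was lost, at adjusted p-values up to 0.0863, without any 1 of RP replicates 2, 4, 5 and 6 or RPC replicates 1 to 5.

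Cxcl9, the third ligand, was singled out after its values were seen. It ran from 0.0579 CPM in RP replicate 4 over a median of 0.416 CPM to 3.16 CPM in RP replicate 5, and was 0.756, 1.28, 1.32, 1.33 and 4.05 CPM in RPC replicates 1 to 5. Outside replicate 5, which had 189 counts, each RP value came from 1 to 10 counts. The RPC values came from 12 to 56 counts. All 5 RPC tumours were above the RP median, and RP replicate 5 was above 4 of them. The log2 fold change was 1.05 ± 0.75 SE (adjusted p = 0.328), and it was 2.25 without RP replicate 5 (adjusted p = 0.0219). DESeq2 and limma voom with sample weights, fitted to all 12 tumours, called Cxcl9 higher, at log2 fold changes of 1.98 and 1.92. At its defaults DESeq2 can replace outlying counts in a group as large as RP, and the sample weights can reduce the part of single tumours. Whether RP replicate 5 was treated so was not tested, so these calls may not be independent of the fit without it. Reads for Cxcr3 itself were too few to test. It was highest in RP replicate 5, at 1.49 CPM, and at most 0.416 CPM in every other tumour.

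**Figure D2:**
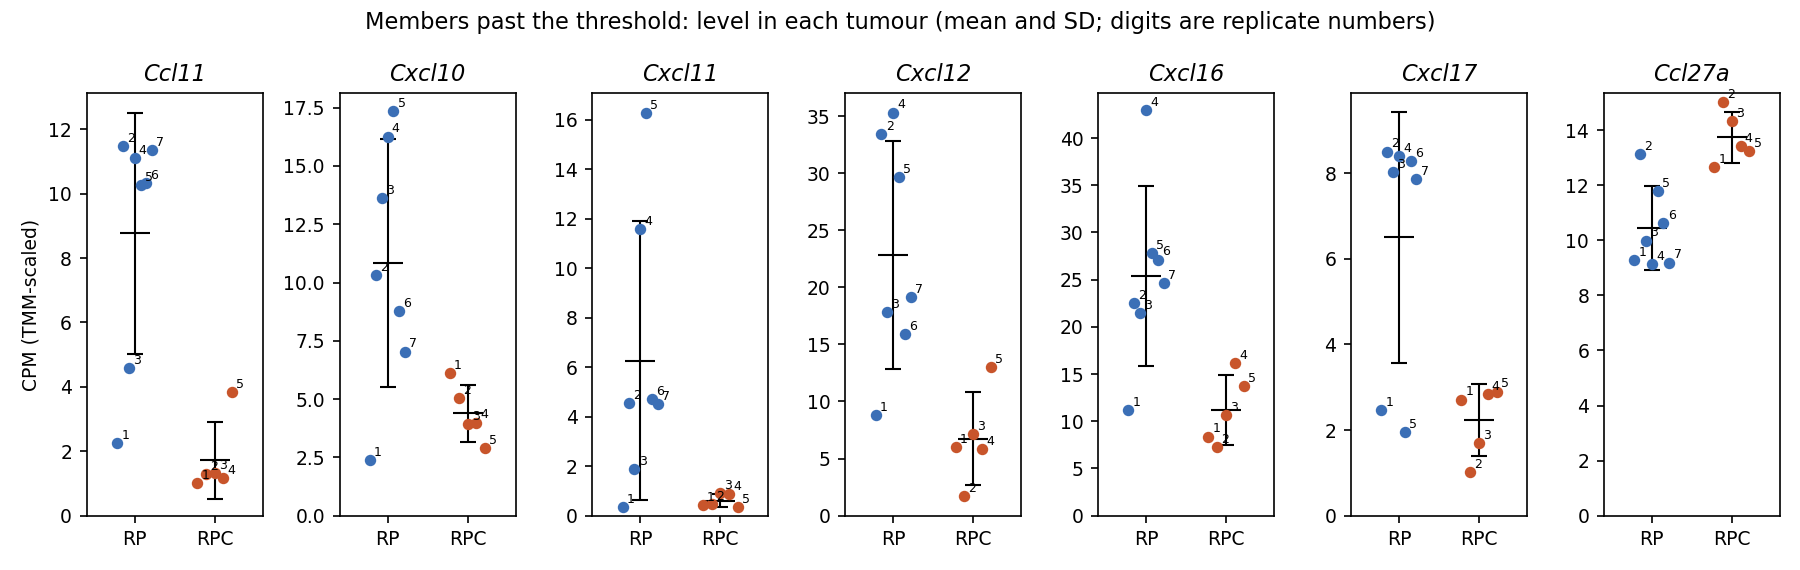
CPM (y axis, each panel with its own scale from 0) of the 7 called members in each tumour, with the group mean and SD; digits are replicate numbers, 7 RP and 5 RPC tumours. RP replicate 1 lies below every RPC tumour for Cxcl10 and Cxcl11 and is the lowest RP tumour for Ccl11, Cxcl12 and Cxcl16, and RPC replicates 2 to 5 lie above every RP tumour for Ccl27a. For Cxcl11, RP replicate 1 rests on 5 counts and the RPC tumours on 5 to 19.

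Cxcl12 is a homeostatic chemokine of fibroblasts and endothelium that retains cells bearing Cxcr4. In RP tumours it ran from 8.79 CPM in replicate 1 over a median of 19.1 CPM to 35.3 CPM in replicate 4. The RPC tumours, replicates 1 to 5, had 5.99, 1.74, 7.12, 5.86 and 13.0 CPM. Only RPC replicate 5 reached the RP range. Cxcl12 fell 3.38-fold (log2 fold change -1.76 ± 0.44 SE; adjusted p = 0.0205), and without RPC replicate 1 the adjusted p was 0.0515. Its receptor genes did not pass. Cxcr4 was at 4.44 ± 2.33 CPM (SD, n = 7) in RP and 4.21 ± 1.92 CPM (SD, n = 5) in RPC tumours (log2 fold change -0.08 ± 0.38 SE; adjusted p = 0.897). Cxcr7, now called Ackr3, encodes a receptor that takes up Cxcl12 and Cxcl11 without G protein signalling. It ran from 6.34 CPM over a median of 14.9 CPM to 18.9 CPM in RP tumours and was 4.79, 4.58, 8.21, 8.44 and 12.7 CPM in RPC replicates 1 to 5. All 5 RPC tumours were below the RP median (log2 fold change -0.72 ± 0.33 SE; adjusted p = 0.141).

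Cxcl16 encodes a membrane-bound ligand of Cxcr6 that also takes up oxidised lipoprotein. In RP tumours it ran from 11.2 CPM in replicate 1 over a median of 24.7 CPM to 42.9 CPM in replicate 4. The RPC replicates 1 to 5 had 8.38, 7.24, 10.6, 16.2 and 13.8 CPM. RP replicate 1 was the only RP tumour within the RPC range. Cxcl16 fell 2.26-fold (log2 fold change -1.18 ± 0.29 SE; adjusted p = 0.0200), and the adjusted p was 0.0529 without RPC replicate 1 and 0.0526 without RPC replicate 2. Of its 50-base windows 16.9% also occur in Zmynd15, which stood at 2.40 CPM in RP and 1.43 CPM in RPC tumours (adjusted p = 0.107), and the strand setting of the counting is not given. Cx3cl1, the other membrane-bound chemokine gene, ran from 10.2 CPM over a median of 18.2 CPM to 26.4 CPM in RP tumours and was 7.56, 12.7, 11.98, 11.99 and 9.05 CPM in RPC replicates 1 to 5. All 5 RPC tumours lay below the RP median (log2 fold change -0.70 ± 0.25 SE; adjusted p = 0.0658), and it was called lower without RP replicate 1 (adjusted p = 0.0361) or RP replicate 2 (adjusted p = 0.0471), by DESeq2 (0.0321) and by limma voom (0.0335). Its receptor gene Cx3cr1, of monocytes and resident macrophages, ran from 0.975 CPM over a median of 4.09 CPM to 10.9 CPM in RP tumours and was 4.54, 3.39, 3.02, 3.996 and 6.66 CPM in RPC replicates 1 to 5. The log2 fold change was -0.13 ± 0.47 SE (adjusted p = 0.869), and it turned to 0.23 without RP replicate 4.

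Cxcl17 is a mucosal chemokine made by airway and other epithelia. In RP tumours it ran from 1.96 CPM in replicate 5 over a median of 8.01 CPM to 8.50 CPM in replicate 2. RPC replicates 1 to 5 held 2.71, 1.01, 1.70, 2.84 and 2.90 CPM. The RP tumours fell apart, with replicates 1 and 5 among the RPC values and the other 5 between 7.86 and 8.50 CPM. Cxcl17 fell 2.89-fold (log2 fold change -1.53 ± 0.43 SE; adjusted p = 0.0301), and the call was lost, at adjusted p-values up to 0.0756, without any 1 of RP replicates 2, 4 and 6 or RPC replicates 1, 2 and 3.

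Ccl27a encodes a skin chemokine that attracts T cells bearing Ccr10, and it was the member called higher. In RP tumours it ran from 9.14 CPM in replicate 4 over a median of 9.99 CPM to 13.1 CPM in replicate 2. Levels in RPC replicates 1 to 5 were 12.7, 15.0, 14.3, 13.4 and 13.3 CPM. RPC replicates 2 to 5 were above every RP tumour. Ccl27a rose 1.31-fold (log2 fold change 0.39 ± 0.13 SE; adjusted p = 0.0464). The call was lost without any 1 tumour other than RP replicate 2, at adjusted p-values from 0.0521 without RP replicate 3 to 0.134 without RPC replicate 2, and with upper quartile scaling (0.0615). Of its 50-base windows 45.0% also occurred in other genes, Ccl27b among them, so the level is uncertain. Its receptor gene Ccr10 was at 3.56 ± 1.1997 CPM (SD, n = 7) in RP and 2.59 ± 1.18 CPM (SD, n = 5) in RPC tumours (adjusted p = 0.335). Ccl25, the thymus and gut ligand of Ccr9, did not differ beyond its spread, at 3.32 ± 1.85 and 3.44 ± 2.04 CPM (adjusted p = 0.966).

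Cxcl13 attracts B cells through Cxcr5 and had the highest mean CPM of the tested CXC ligands that act on neither Cxcr3 nor the neutrophil receptors. In RP tumours it ran from 3.85 CPM in replicate 3 over a median of 36.9 CPM to 177 CPM in replicate 5. Cxcl13 in RPC replicates 1 to 5 was 3.40, 1.19, 7.60, 4.44 and 20.3 CPM. RP replicates 1 and 3 lay within the RPC range. Its log2 fold change was -2.72 ± 0.94 SE (adjusted p = 0.0622), and it was called lower without RP replicate 1 (adjusted p = 0.0386), RP replicate 3 (0.0385) or RPC replicate 5 (0.0440), and by DESeq2 and limma voom. Among 5 tested B and plasma cell markers 1 (20%) was lower, near the 18.3% of all genes called. It was Cd79a, a B cell receptor subunit, at 19.3 ± 11.0 CPM (SD, n = 7) in RP and 3.798 ± 0.526 CPM (SD, n = 5) in RPC tumours (adjusted p = 0.00395). The summed B and plasma cell markers, with Cd79a a large part, were 15.9 to 45.8 CPM in RP and 5.13 to 8.52 CPM in RPC tumours. The highest sum was in RP replicate 7, the tumour with the lowest pan-leukocyte marker sum (24.3 CPM). The part of these markers in the Cxcl13 difference was not tested. Cxcr5 had at most 15 counts in any tumour and was not tested. Cxcl14, a chemokine of epithelium and fibroblasts, was at 10.5 ± 4.73 and 7.37 ± 2.65 CPM in the same order (adjusted p = 0.325).

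A single tumour, RP replicate 3, held the highest value of most monocyte-attracting CC chemokines. Ccl6, a macrophage CC chemokine, ran in RP tumours from 18.1 CPM in replicate 7 over a median of 56.7 CPM to 465.7 CPM in replicate 3. RPC replicates 1 to 5 stood at 42.3, 128, 50.9, 26.5 and 64.5 CPM. RP replicate 3 stood far above the next tumour, RP replicate 4 at 135 CPM, and the others of both groups overlapped. The log2 fold change was -0.92 ± 0.72 SE (adjusted p = 0.384), and it turned to 0.05 without RP replicate 3. Ccl2, the main ligand of the monocyte receptor Ccr2, was also singled out after its values were seen. It was 39.9 CPM in RP replicate 3 and 17.5 CPM in RP replicate 5, against 1.08 to 9.03 CPM in the other RP tumours. Its RPC replicates 1 to 5 were at 5.29, 7.97, 5.14, 2.66 and 8.54 CPM, above the RP median of 2.76 CPM in 4 tumours, although the RP mean was higher. The log2 fold change was -0.84 ± 0.80 SE (adjusted p = 0.466), and it was -0.0008 without RP replicate 3. Ccl7, Ccl9, Ccl12, Ccl3 and Ccl24 were also highest in RP replicate 3. Ccl8 was highest in RP replicate 5, at 31.5 CPM, and none of these 6 was called.

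**Figure D3:**
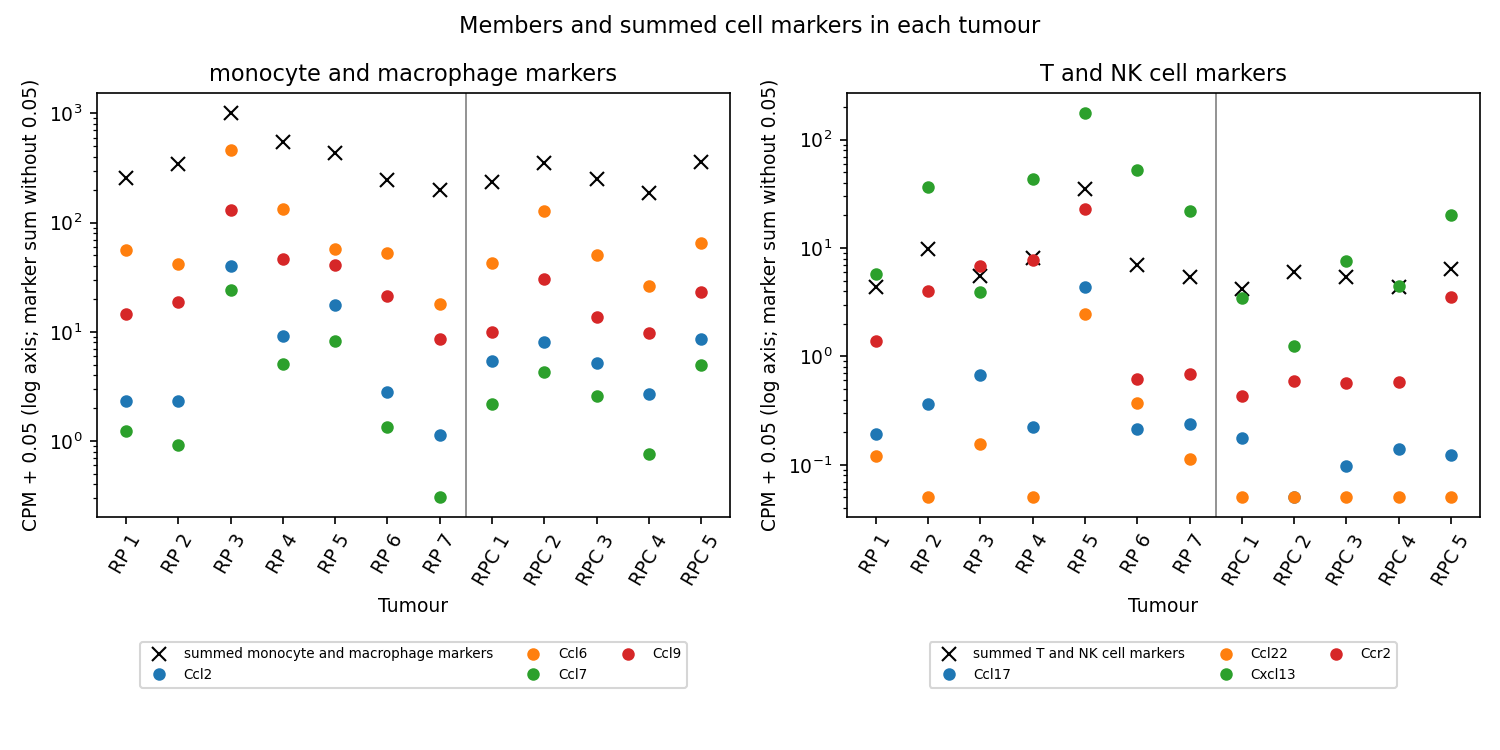
CPM plus 0.05 on a log axis in each of the 12 tumours for Ccl2, Ccl6, Ccl7 and Ccl9 (left) and Ccl17, Ccl22, Cxcl13 and Ccr2 (right), with summed cell markers as crosses without the added 0.05. RP replicate 3 holds the highest value of the 4 genes on the left and of the monocyte and macrophage sum (1016 CPM), and RP replicate 5 that of the 4 on the right and of the T and NK cell sum (35.3 CPM). The genes are a selection, so the shared peaks are no test of a link to these cells. Ccl8, highest in RP replicate 5, and Cx3cr1, highest in RP replicate 4, are not shown.

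Receptors of these ligands varied widely among the RP tumours. Ccr2, of inflammatory monocytes, ran in RP tumours from 0.569 CPM in replicate 6 over a median of 3.93 CPM to 22.7 CPM in replicate 5. Ccr2 in RPC replicates 1 to 5 was 0.378, 0.550, 0.519, 0.533 and 3.48 CPM. RPC replicates 1 to 4 lay just below the lowest RP tumours, and RPC replicate 5 within the RP range. With 6, 6, 11 and 6 counts in RPC replicates 1 to 4 and 7 and 10 in RP replicates 6 and 7, this order is uncertain. The log2 fold change was -2.53 ± 0.97 SE (adjusted p = 0.0849), and -3.68 without RPC replicate 5 (adjusted p = 0.0447) and -1.70 without RP replicate 5 (adjusted p = 0.164). Ccr1, a receptor of monocytes and neutrophils for Ccl3, Ccl5 and Ccl9, ran from 1.14 CPM over a median of 5.34 CPM to 17.6 CPM, again in RP replicate 3. In RPC replicates 1 to 5 it was 3.47, 4.67, 3.63, 3.02 and 4.27 CPM, all inside the RP range (log2 fold change -0.77 ± 0.54 SE; adjusted p = 0.325). Monocyte and macrophage markers had no call among 11 tested members, all 11 below 0, and summed to 200.3 to 1016 CPM in RP and 185.6 to 360.8 CPM in RPC tumours.

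Among the neutrophil-attracting CXC ligands, Cxcl1 had both the highest level and the smallest p. In RP tumours it ran from 2.66 CPM in replicate 7 over a median of 6.43 CPM to 14.6 CPM in replicate 3, and in RPC replicates 1 to 5 it was 5.04, 3.85, 1.89, 4.35 and 4.34 CPM. All 5 RPC tumours were below the RP median (log2 fold change -0.83 ± 0.41 SE; adjusted p = 0.165). Cxcl2 was at 1.033 CPM in RP and 1.002 CPM in RPC tumours on average, and Cxcl3 reached 4.27 CPM in RPC replicate 5 against at most 1.38 CPM elsewhere. Cxcr2, the receptor of these ligands on neutrophils, was at 5.12 ± 0.297 CPM (SD, n = 5) in RPC and 6.11 ± 1.48 CPM (SD, n = 7) in RP tumours (adjusted p = 0.377). Cxcl15, the lung chemokine lungkine, was at 5.70 ± 3.61 and 3.93 ± 3.43 CPM (adjusted p = 0.591).

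**Figure D4:**
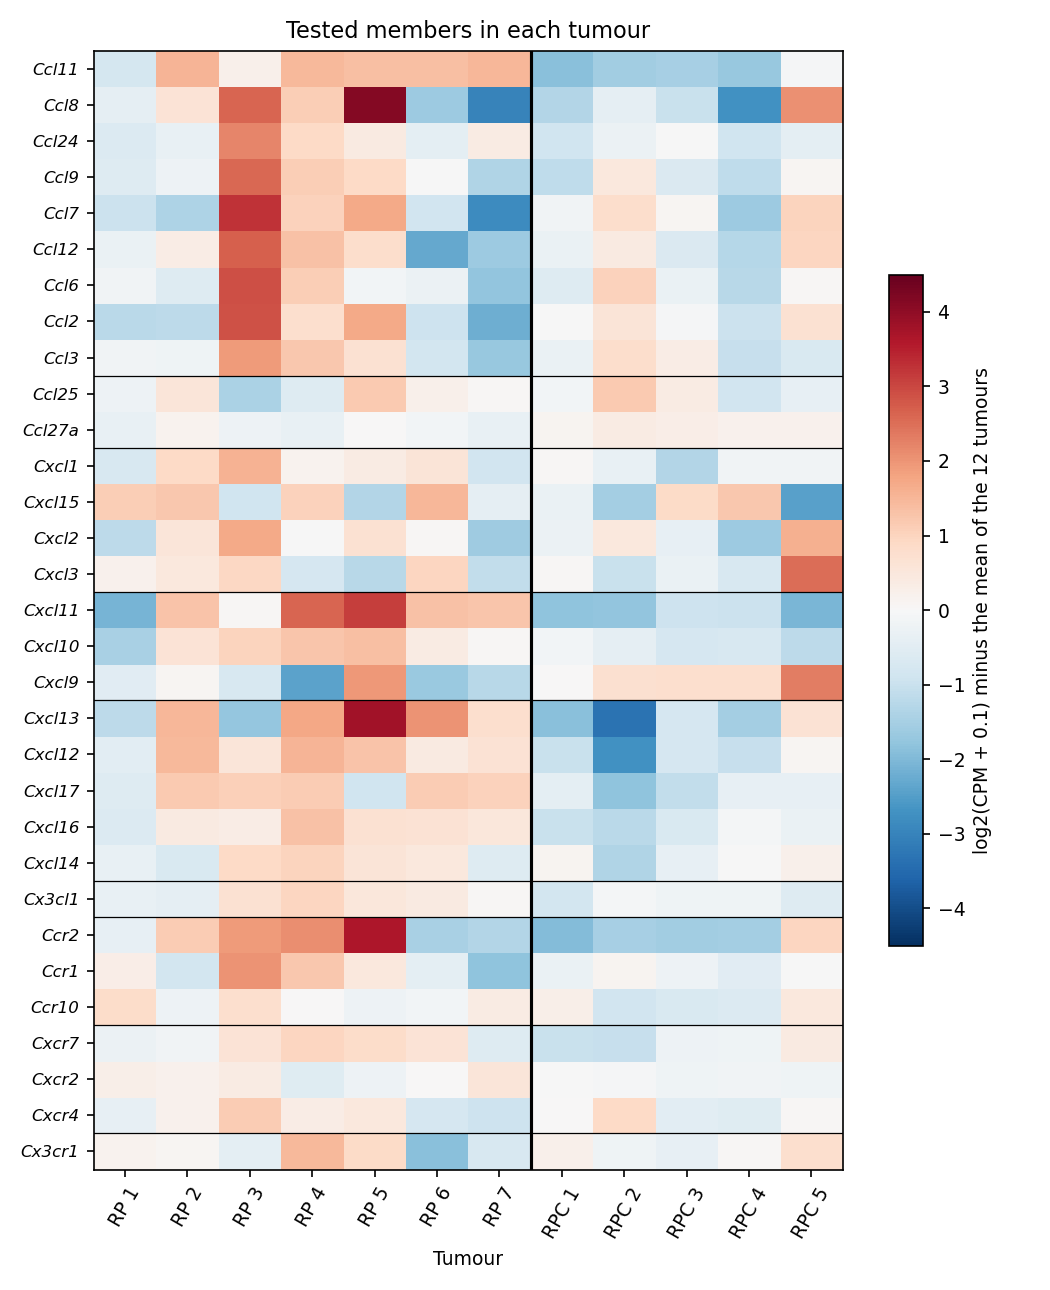
Log2(CPM + 0.1) of 31 tested members minus the mean over the 12 tumours (colour), with tumours in columns, 7 RP left and 5 RPC right of the line, and genes in rows by role. RP replicate 3 is the highest tumour for 11 of the members plotted and RP replicate 5 for 5.

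An RP tumour held the highest value of 28 of the 32 tested members and the lowest of 18, with 7 RP and 5 RPC tumours compared. Such counts were not made over all genes, so those of this paragraph have no background share. An RPC tumour held the lowest value of 14 and the highest of 4, Ccl25 and Ccl27a in replicate 2 and Cxcl3 and Cxcl9 in replicate 5. RP replicate 3 was highest for 12, RP replicate 4 for 6 (Cx3cl1, Cx3cr1, Cxcl12, Cxcl14, Cxcl16 and Cxcr7) and RP replicate 5 for 5. RP replicate 7 was the lowest tumour for 9. All members together summed to 426.7 ± 260.1 CPM (SD, n = 7) in RP and 208.6 ± 57.6 CPM (SD, n = 5) in RPC tumours, and the ranges of 191.3 to 903.3 CPM and 155.9 to 272.4 CPM overlapped.

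Levels were compared between genes as CPM per kilobase of annotated exon, averaged within each group. Ccl6 had the highest level in both, at 81.9 CPM per kilobase in RP and 43.4 in RPC tumours, and its RP mean was 41.7 without RP replicate 3. Next in RP tumours came Cxcl13 at 42.5 and Ccl8 at 14.2 CPM per kilobase, which were 23.8 and 6.33 without RP replicate 5. Ccl9 and Ccl2 followed at 13.3 and 13.1 CPM per kilobase, which were 8.35 and 7.16 without RP replicate 3. The order in RPC tumours was another, with Ccl27a at 8.88 CPM per kilobase, Ccl2 at 7.29, Cxcl13 at 6.43 and Ccl9 at 5.77 after Ccl6. Over all 12 tumours the receptor genes with the highest levels were Cxcr7 at 3.47 CPM per kilobase, Cxcr4 at 2.41, Ccr1 at 1.90, Cxcr2 at 1.87 and Ccr10 at 1.83. Neighbours in this order were not tested against each other.

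**Figure D5:**
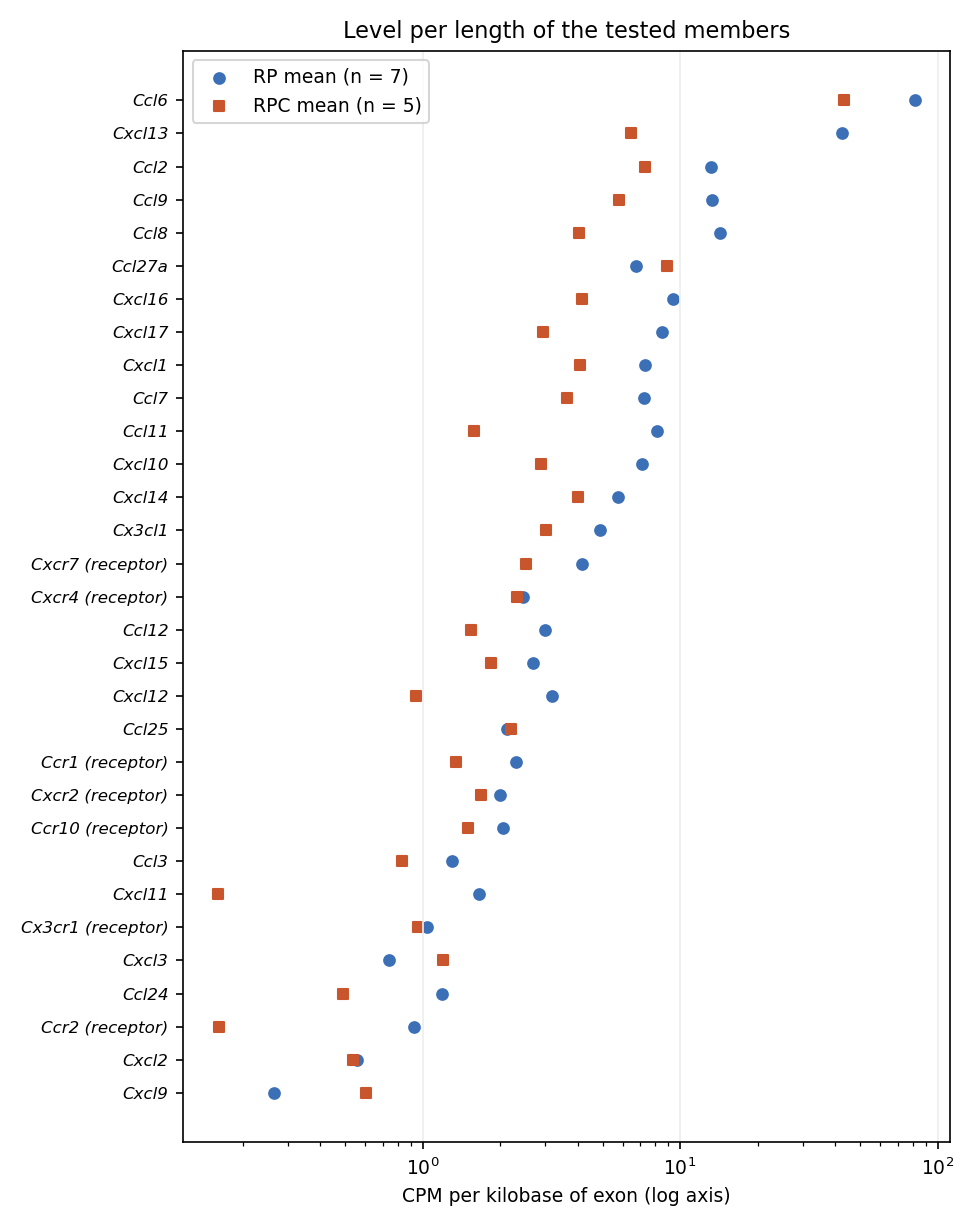
CPM per kilobase of exon (x axis, log scale) of 31 tested members, as the mean of 7 RP tumours (circles) and 5 RPC tumours (squares), ordered by the mean of all 12. Ccl6 is highest in both groups, and the RPC mean exceeds the RP mean for Ccl27a, Ccl25, Cxcl3 and Cxcl9.

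The 25 members that were not tested comprised 6 with no count in any tumour and 19 with few. Ccl19, Ccl21a, Ccl21b, Ccl26, Ccl27b and Ccl28 were listed at 0. The transcripts of Ccl21b and Ccl27b share 100% and 98.1% of their 50-base windows with other genes, those of Ccl21a 71.6% and those of Ccl19 52.0%, so reads from those windows would not have been counted if they aligned to several places, and these 0 values do not show absence of the transcripts. For Ccl26 and Ccl28 a count of 0 allows up to 0.329 CPM in the shallowest tumour. Of the untested members 9 were highest in RP replicate 5. There Ccl17 and Ccl22, ligands of Ccr4 made by dendritic cells, stood at 4.37 and 2.39 CPM, from 261 and 143 counts, against at most 0.625 and 0.325 CPM in any other tumour. Ccl5, a T cell product, was at 4.05 CPM there against at most 1.18 CPM, Ccr9 at 2.04 CPM against at most 0.367 CPM, and Ccr7, Cxcr6 and Xcr1 at 1.29, 1.19 and 1.46 CPM. RPC replicate 5 held the 11 counts of Ccl20, 0.797 CPM, where every other tumour had none, and the highest Cxcl5, at 1.67 CPM against at most 0.833 CPM. Ccl4, Ccr3, Ccr4, Ccr8 and Cxcr5 had at most 39 counts in any tumour and were highest in RP tumours, and Ccl1, Ccr6, Cxcr1 and Xcl1 had at most 4.

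Other genes of chemokine biology were taken from fixed lists. Of all genes tested 18.3% were called, 9.64% higher and 8.61% lower. In the lists below, in order, 10%, 13.5%, 22.2% and 0% of the tested genes were called. Of 10 tested atypical receptors and further chemokine genes 1 was lower, Ccrl2, which presents chemerin, at 2.87 ± 0.862 CPM (SD, n = 7) in RP and 1.65 ± 0.414 CPM (SD, n = 5) in RPC tumours (adjusted p = 0.0491). Among 37 signalling genes below the receptors 2 were higher and 3 lower, with the receptor kinase gene Grk5 falling 1.97-fold, the beta-arrestin gene Arrb2 changing by -0.51 on the log2 scale and the Rac exchange factor gene Tiam1 rising 1.54-fold. Of 18 tested inducers of chemokine transcription 4 were lower and none higher. Lta, the lymphotoxin gene, was at 5.67 ± 3.18 CPM (SD, n = 7) in RP and 0.607 ± 0.677 CPM (SD, n = 5) in RPC tumours and fell 9.30-fold (adjusted p = 0.0144). The NF-kB subunit gene Nfkb2 fell 1.78-fold and the interferon response factor gene Irf1 1.36-fold. The list medians were -0.37, -0.06 and -0.31 on the log2 scale, against -0.02 for all genes. None of 8 tested proteases that cut or shed chemokines was called, Adam17, which sheds Cx3cl1 and Cxcl16, having the smallest p (log2 fold change 0.31 ± 0.14 SE; adjusted p = 0.132).

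Markers of cells that could make or carry these genes are given beside the 18.3% of all genes called, and their part in the members' differences was not tested except as covariates. Of 12 adipocyte markers all 12 were lower, among them Pparg, Plin1 and Lipe, with sums of 100.5 to 2149 CPM in RP and 77.4 to 159.7 CPM in RPC tumours. Of 10 fibroblast and pericyte markers 3 were lower, Thy1, Acta2 and Pdgfra, and all 10 were below 0, with sums of 743.5 to 2309 CPM and 376.5 to 1104 CPM. Of 8 pan-leukocyte markers 1 was lower, Cd52, and all 8 were below 0, with sums of 24.3 to 192 CPM and 31.7 to 72.9 CPM. Thyroid follicular markers were lower in 2 of 11, Dio1 and Tshr, with sums of 2038 to 9646 CPM and 393.7 to 5959 CPM. Endothelial and lymphatic markers had 1 lower of 9, Emcn, with sums of 118.7 to 263.6 CPM and 135.6 to 308.5 CPM, and Glycam1, of high endothelial venules, had at most 3 counts in any tumour. T and NK cell, dendritic cell, and neutrophil and mast cell markers had no call among 2, 3 and 6 tested members, the smallest p being those of Zap70, Zbtb46 and Csf3r, and Ncr1 and Ngp had at most 3 counts in any tumour. The lymph node stroma list had 2 usable members, neither with enough reads to test, at a sum of 0.405 to 0.833 CPM in RP and 0.458 to 0.819 CPM in RPC tumours. Neuroendocrine markers had 3 higher and 2 lower of 15, with rises of Gfra1 and Uchl1 and a fall of Nkx2-1.

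With the pan-leukocyte marker score as a covariate 3149 of all genes were called, against 2736 without it. Of the 6 lower genes 5 were still called: Ccl11 (log2 fold change -2.33), Cxcl11 (-2.89), Cxcl12 (-1.53), Cxcl16 (-1.12) and Cxcl17 (-1.64). Cxcl10 was not (-0.89; adjusted p = 0.103), and Ccl27a, Ccl2 and Cxcl9 were called higher, at 0.43, 1.05 and 2.16. With the adipocyte score as a covariate no member was called and 57 of all genes were, and the log2 fold changes were -1.43 for Ccl11, -3.19 for Cxcl11, -1.29 for Cxcl10, -1.19 for Cxcl12, -0.65 for Cxcl16 and -0.61 for Cxcl17. With the follicular score no member and 3 of all genes were called, at log2 fold changes of -2.35 for Ccl11, -1.45 for Cxcl10, -1.73 for Cxcl11, -0.93 for Cxcl12, -0.54 for Cxcl16 and -1.29 for Cxcl17. The follicular score was 0.413 to 0.824 in RP tumours except replicate 3 (-0.129) and -1.515 to -0.122 in RPC tumours. The adipocyte score was -0.655 to 1.588 in RP and -0.982 to -0.455 in RPC tumours. Both scores went largely with genotype, so these fits cannot tell the score and the genotype apart.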

How the data were processed

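Polyadenylated RNA of 12 tumours was extracted with TRIzol and made into libraries with NEBNext kits, per the labels' protocols. The submitters' processing notes name the build mm9 and HTSeq 0.6.1, TopHat2 2.0.12 and bcl2fastq 1.8.2. Annotation and strand setting: not given in the sources used here. Each tumour has its own table of raw counts over 23284 genes, as deposited. The counter's summary rows were left out, of which reads aligned to several places made up 10.9% to 18.5% and reads outside genes 13.1% to 17.6% of each table.

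Computed here: genes were kept by filterByExpr (minimum count 10; 14989 genes), scaled by TMM and tested with edgeR 4.0.16's robust quasi-likelihood F test (R 4.3.3) between 5 RPC and 7 RP tumours without covariates, with Benjamini-Hochberg adjustment over all genes and a threshold of 0.05. The standard error is the log2 fold change divided by the square root of F. A marker score averages the z-scores of its genes, from log2 CPM with a prior count of 2. Lengths are exon unions of GENCODE M21, and shared windows were sought in its transcripts on both strands. Older symbols were used for 9 list genes, and 2 were not found. On simulated counts with 200 of 14989 genes changed, 57% of 2-fold and 95% of 4-fold changes were recovered, with 8 of 160 calls false. No pair of libraries of 1 group agreed within sampling noise. Counting limits cover counting error only. Alternatives used DESeq2 1.42.0, limma 3.58.1 voom, 2 scalings, 2 filters, a 1.2-fold test, a tumour block, 3 marker scores and left-out tumours.

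Members and lists were chosen with earlier results of these data known. Values per tumour are given for called members and, in each role class, the member with the smallest p and that with the highest CPM; up to 3 called genes of each list are named, or the one with the smallest p. Cxcl9 and Ccl2, the genes named for a left-out or single tumour, Zmynd15, and the untested members were named after their values were seen. The values of 1 tested member, which is included in the counts and sums, are not reported here.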

Additional observations from a re-analysis of the deposited data

Results flagged for a closer look

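Among 34 sets of values, 17 members in each of the 2 groups, 8 held a highest tumour far from the others by the gap to its neighbour relative to the range of the group. Chance flags about 1 set in 20 for normally distributed values of genes not chosen by their values. That rate cannot be read here. CPM was not checked for a normal distribution, and several members were named for a high level. Cxcl9 and Ccl2, with 3 of the 8, were named after their values were seen. In RP replicate 3 these were Ccl6 at 465.7 CPM (next 135 CPM) and Ccl2 at 39.9 CPM (next 17.5 CPM). In RP replicate 5 they were Cxcl13 at 177 CPM (next 52.5 CPM), Ccr2 at 22.7 CPM (next 7.75 CPM) and Cxcl9 at 3.16 CPM (next 0.787 CPM). In RPC replicate 5 they were Ccl11 at 3.84 CPM (next 1.32 CPM), Ccr2 at 3.48 CPM (next 0.550 CPM) and Cxcl9 at 4.05 CPM (next 1.33 CPM). All 8 are high values, and they fall in 3 of the 12 tumours.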

How the results depend on the processing

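Over 25 alternatives the direction of the 7 called members never changed. The number of alternatives in which each was still called was 22 for Ccl11, 21 for Cxcl11, 20 for Cxcl12, 19 for Cxcl16, 13 for Cxcl17, 9 for Cxcl10 and 6 for Ccl27a. Lower members ranged from 2 to 8 over left-out tumours, higher members from 0 to 1 and all called genes from 1074 to 3510. Of all genes, limma voom with sample weights called 6357, DESeq2 4088 and the pan-leukocyte score 3149. Replicates 1 to 5 of both groups called 868 and the 1.2-fold test 976. The adipocyte score called 57, the follicular score 3, and the 8 tumours without RP replicates 2, 4, 6 and 7 called 40. Lower members numbered 3 on replicates 1 to 5 and 0 with the adipocyte score, the follicular score or those 8 tumours. DESeq2 called 9 lower members and voom 8. Higher members numbered 2 with each of these, 3 with the pan-leukocyte score, and 0 with no filter, upper quartile scaling, the 1.2-fold test, replicates 1 to 5, both other scores and the 8 tumours. The tumour numbers shared by the groups gave correlations of -0.165 to 0.208 between same-numbered deviations over 5 pairs, so the numbers were not taken as pairs. With the replicate block on replicates 1 to 5, 463 genes, 3 lower members (Ccl11, Ccr2 and Cxcl16) and 0 higher members were called. Signs turned for members that were not called: Ccl2 with voom (0.23) and the pan-leukocyte score (1.05); Ccl6 with that score (0.28) and over left-out tumours (-1.38 to 0.0549, the latter without RP replicate 3); Ccr1 with that score (0.17); and Cx3cr1 with that score (0.41), the follicular score (0.52) and over left-out tumours (-0.35 to 0.23, the latter without RP replicate 4). Where a covariate or fewer tumours ended a call the cause was not tested. At 0.0523 to 0.329 CPM for 3 counts, depth limits most of the 25 untested members and the RPC levels of Cxcl11. Low counts also limit Cxcl11 in RP replicate 1, the RP levels of Cxcl9 outside replicate 5 and the lowest levels of Ccr2. For Ccl19, Ccl21a, Ccl21b and Ccl27b sequence shared with other genes limits the counts as well.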
